A study of Mus musculus with 40 samples.

Results

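H19 and 9 other imprinted genes that act on growth were followed in bulk RNAseq of mouse rib tissue, through the healing of a large rib defect in immature and mature mice. The 10 genes are H19, Igf2, Dlk1, Meg3, Peg3, Mest, Cdkn1c, Plagl1, Grb10 and Igf2r. They were taken by symbol from the deposited table, and all 10 were among its 21204 genes. The list was chosen by the level of H19, which was higher in immature than in mature mice at baseline and at 2 days post-resection (dpr), so the differences between ages at those stages are described here without a test. Wild type female mice, of a background the study writes as C75BL/6, were 7 weeks old in the immature group and over 10 months old in the mature group. By the labels, tissue was of baseline or of 0, 2, 5 and 14 dpr, and the study uses baseline for the state before resection. There were n = 4 libraries in each of the 10 groups of age and stage, apart from mature mice at 5 dpr (n = 3), of which 1 library was not analysed here. The study's methods speak of individual biological samples, but the labels do not tie libraries to mice, so p-values measure the spread between libraries, which may be technical. Each piece was ground whole and, by its label, held bone, bone marrow and intercostal muscle, so that fewer cells of a type and less RNA per cell cannot be told apart.

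Imprinted genes are expressed mainly from the copy inherited from 1 parent. H19, Meg3, Cdkn1c, Grb10 and Igf2r are expressed mainly from the maternal copy, and Igf2, Dlk1, Peg3, Mest and Plagl1 mainly from the paternal copy. Many of them are high in the fetus and young animal and fall as growth slows. H19 is a long noncoding RNA that shares enhancers with the neighbouring Igf2, which encodes a growth factor of embryonic and regenerating tissue. Both are known to be expressed in developing and regenerating skeletal muscle. Igf2r, the cation-independent mannose 6-phosphate receptor, takes up IGF2 and delivers it to lysosomes, and Grb10 is an adaptor that restrains signalling by the insulin and IGF1 receptors. Dlk1 encodes a transmembrane protein of the Notch ligand family found on progenitors of fat, muscle and bone, and Meg3, its neighbour, is a long noncoding RNA. Mest encodes an enzyme of the alpha/beta hydrolase fold. Peg3 and Plagl1 encode zinc finger proteins, and Cdkn1c encodes p57, an inhibitor of cyclin-dependent kinases.

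In the GRCm38 annotation, 4 of the 10 genes lie on chromosome 7. H19 (ENSMUSG00000000031, chr7:142575529-142578143) and Igf2 (ENSMUSG00000048583, chr7:142650766-142666816) are both on the minus strand, as are Cdkn1c (chr7:143458339-143461050) and Peg3 (chr7:6703892-6730431). Dlk1 (chr12:109452823-109463336) and Meg3 (chr12:109541001-109571726) follow each other on the plus strand of chromosome 12. Mest (chr6:30723547-30748465) and Plagl1 (chr10:13060504-13131694) are on plus strands, and Grb10 (chr11:11930508-12038683) and Igf2r (chr17:12682406-12769664) on minus strands. H19 and Meg3 are annotated as long intergenic noncoding RNAs and the other 8 as protein coding. Igf2 overlaps Gm49394 on the same strand, so that their reads may be mixed. Igf2r overlaps the antisense RNA Airn. The library kit keeps strand, but whether the counting used it is not given in the sources used here, so that reads of Igf2r and Airn may be mixed.

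H19, Igf2 and Mest each carry a miRNA gene, and their mature sequences (RefSeq, GRCm38.p6) are shown because they lie within host genes of the list. Bases 2 to 8, the seed, are in capitals.
miR-675-5p of H19, chr7:142577112-142577133, minus strand: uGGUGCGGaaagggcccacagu
miR-675-3p of H19, chr7:142577078-142577099, minus strand: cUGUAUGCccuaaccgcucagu
miR-483-5p of Igf2, chr7:142654968-142654989, minus strand: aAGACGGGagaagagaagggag
miR-483-3p of Igf2, chr7:142654932-142654952, minus strand: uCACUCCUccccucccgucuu
miR-335-5p of Mest, chr6:30741314-30741336, plus strand: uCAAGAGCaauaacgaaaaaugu
miR-335-3p of Mest, chr6:30741354-30741375, plus strand: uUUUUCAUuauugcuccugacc
miR-675 lies in an exon of 3 of the 7 annotated H19 transcripts. miR-483 and miR-335 lie within Igf2 and Mest, outside the exons of every annotated transcript of the host. None of the 6 shares its seed with another mature miRNA of the table. The row of Mir675 had 0 reads in all 39 libraries, and these libraries do not measure mature miRNAs.

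Imprinted promoters are known for methylation of CG pairs on 1 parental copy. The 250 bases before a transcription start (RefSeq, GRCm38.p6) are shown for both genes of the chromosome 12 locus, and for Mest and Igf2, which rose more than 5-fold from 2 to 5 dpr at both ages. CG pairs are in capitals.
Dlk1, chr12:109452573-109452822, plus strand: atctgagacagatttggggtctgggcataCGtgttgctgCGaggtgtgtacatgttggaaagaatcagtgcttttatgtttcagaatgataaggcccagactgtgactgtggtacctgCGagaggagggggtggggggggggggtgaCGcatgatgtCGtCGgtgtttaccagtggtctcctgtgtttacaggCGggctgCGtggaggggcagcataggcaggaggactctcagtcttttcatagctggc
Meg3, chr12:109540746-109540995, plus strand: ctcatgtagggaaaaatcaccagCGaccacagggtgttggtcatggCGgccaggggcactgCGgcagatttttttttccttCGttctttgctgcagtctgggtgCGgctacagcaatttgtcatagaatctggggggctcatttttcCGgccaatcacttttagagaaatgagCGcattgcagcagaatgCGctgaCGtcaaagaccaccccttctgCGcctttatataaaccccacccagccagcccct
Mest, chr6:30737800-30738049, plus strand: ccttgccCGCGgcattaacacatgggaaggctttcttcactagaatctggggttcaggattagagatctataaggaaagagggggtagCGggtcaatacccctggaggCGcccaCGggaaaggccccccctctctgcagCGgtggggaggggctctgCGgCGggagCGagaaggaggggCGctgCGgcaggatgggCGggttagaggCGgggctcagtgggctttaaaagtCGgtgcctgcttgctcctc
Igf2, chr7:142658805-142659054, minus strand: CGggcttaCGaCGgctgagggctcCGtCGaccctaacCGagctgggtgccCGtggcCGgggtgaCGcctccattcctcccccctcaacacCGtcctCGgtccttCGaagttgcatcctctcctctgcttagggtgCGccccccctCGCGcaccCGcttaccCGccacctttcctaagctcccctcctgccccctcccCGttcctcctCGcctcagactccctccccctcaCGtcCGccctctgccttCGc
These windows hold 8 CG pairs in Dlk1, 10 in Meg3, 14 in Mest and 22 in Igf2, against a median of 6 over the 32851 windows of that length in the table. Meg3, Mest and Igf2 have other annotated starts, which are not shown. Counted from 250 bases before to 50 after a start, the Igf2 window shown held 24 CG pairs and its others 2, 14 and 7. By that count the Mest window shown held 17 and its others 8 and 17. For Meg3 the window shown held 13 and the other 1, and the median over all windows was 7. Of the 10 genes, 8 had a window in the table, and H19 and Cdkn1c had none. Over 300 bases, from 250 before to 50 after the start, the letters TATAAA were found on either strand in Meg3, CAGCTG in the upstream window of Mest, and CACGTG in Plagl1 and Igf2r, while 13.6%, 16.3% and 7.15% of all windows hold these letters. No methylation was measured in these data.

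Total counts were 6057756 to 21537070 per library, with a median of 9087417, and levels are given in CPM, counts divided by a library size that was scaled by the TMM method. The labelled tissues were checked by lists of marker genes, each scored in a library as the mean log2 CPM of its genes. Muscle fibre markers scored 11.21 to 11.61 in immature and 10.27 to 11.34 in mature mice at baseline, and osteoblast markers 6.69 to 7.50 and 6.91 to 7.57. For marrow, erythroid markers scored 8.29 to 8.82 and 8.70 to 9.13 and B cell markers 4.42 to 5.51 and 3.65 to 5.43, and none of these 4 lists had a gene at 0 throughout the baseline libraries. The muscle fibre score fell to 8.76 to 9.42 and 8.26 to 9.21 at 2 dpr. The lowest score at that stage for osteoblast markers, 3.40, was that of mature replicate 4, which also had the lowest fibroblast and periosteum score, 6.23.

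At baseline and 5 dpr H19 was by far the highest of the 10 genes per kilobase of annotated exon. In mature mice at 2 dpr H19 averaged 90.1 CPM per kilobase, against 47.3 for Igf2r. By CPM Igf2r was the higher there, with a mean of 440 against 222 for H19. Per kilobase of annotated exon, H19 averaged 1112 ± 179 CPM in immature mice at 5 dpr (SD, n = 4), followed by Mest with 127 ± 24.2, and neither range reached that of the next gene. Igf2r (63.8 ± 11.2), Grb10 (56.2 ± 12.1), Igf2 (43.4 ± 11.2) and Cdkn1c (33.7 ± 6.89) came next, each overlapping the next in this order, and then Peg3 (14.3 ± 3.00) and Plagl1 (11.6 ± 2.15), which also overlapped. Meg3 (6.97 ± 0.840) and Dlk1 (3.38 ± 1.66) were lowest. The length pools the exons of all transcripts and was 18.1 kb for Meg3. By CPM the Meg3 mean, 126, stood above those of Plagl1 (90.6) and Cdkn1c (68.7). In mature mice at 5 dpr the order per kilobase was the same except that Igf2, with 53.8 ± 15.9, stood above Grb10, with 53.1 ± 9.03, and these overlapped. Mest moved most in rank, since at baseline in immature mice it was ninth of the 10 with 2.10 ± 1.03 CPM per kilobase, while H19, with 399.7 ± 65.1, was already first. Of all counts, H19 took between 0.0190% and 0.325%. By count its rank among all genes was 23 in the library where it stood highest, of mature mice at 5 dpr, and 970 where it stood lowest, of mature mice at 2 dpr.

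H19 fell at 2 dpr and rose to its highest level at 5 dpr at both ages. In immature mice, H19 measured 813, 899, 1047 and 1175 CPM in the 4 baseline libraries, 947, 957, 979 and 991 CPM at 0 dpr, and 573, 603, 674 and 691 CPM at 2 dpr. At 5 dpr it measured 2120.1, 2728, 2985 and 3109.6 CPM, above every library of the other stages, and at 14 dpr 949, 949.5, 1383 and 1698 CPM. The 14 dpr libraries lay below those of 5 dpr and overlapped those of baseline. In mature mice, H19 measured 272, 309.9, 448 and 529.8 CPM at baseline, 500.5, 745, 773 and 1112 CPM at 0 dpr and 166, 209, 226 and 286 CPM at 2 dpr. It then measured 1805, 2759 and 3216 CPM at 5 dpr and 1059, 1066, 1099.6 and 1197 CPM at 14 dpr. Here the 14 dpr libraries all lay above those of baseline.

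**Figure D1:**
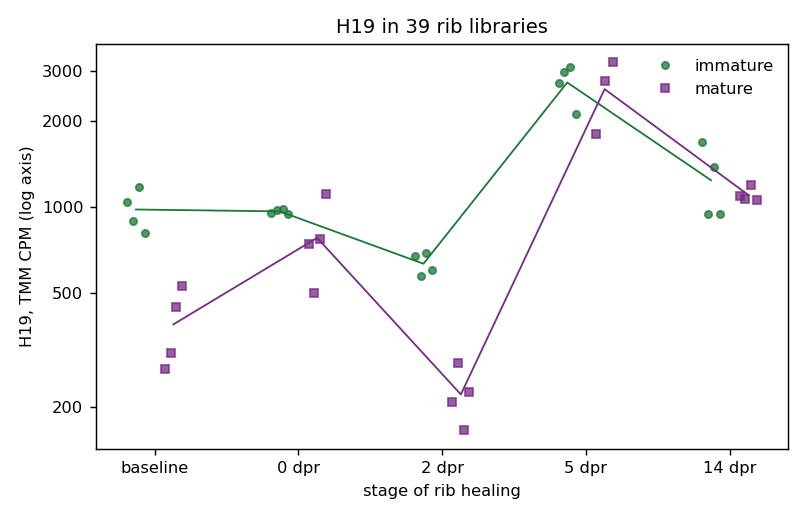
H19 level in each library, in TMM-scaled CPM on a log axis, at baseline and at 0, 2, 5 and 14 dpr. Points are single libraries of immature (circles) and mature (squares) mice and lines join group means. The ages were apart at baseline and 2 dpr and overlapped at 0, 5 and 14 dpr, and both were highest at 5 dpr.

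Ordered by mean, the 10 groups ran from immature 5 dpr, 2736 ± 440.0 CPM (SD, n = 4), and mature 5 dpr, 2593 ± 720.0 CPM (SD, n = 3), which overlapped, to immature and mature 14 dpr, immature baseline, immature 0 dpr, mature 0 dpr, immature 2 dpr, mature baseline, and mature 2 dpr, 222 ± 49.6 CPM (SD, n = 4). From immature 14 dpr to immature 2 dpr, each group overlapped the next in this order. The libraries of immature 2 dpr were all above those of mature baseline, which in turn overlapped those of mature 2 dpr.

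Each change of H19 at both ages from 0 dpr onwards passed the test. Its levels at baseline and 2 dpr are those that chose the gene, so tests that hold the 2 dpr libraries are not independent of the choice, and no p is given for H19 against baseline. From 0 to 2 dpr the log2 fold change was -0.61 ± 0.22 (SE) for the immature group (adjusted p = 0.0224) and -1.82 ± 0.22 for the mature group (adjusted p = 2.14e-08), by edgeR's quasi-likelihood test with Benjamini-Hochberg adjustment over all genes. In immature mice this call was lost without 2 dpr replicate 2 (adjusted p = 0.0612) or replicate 4 (adjusted p = 0.0517). On the log2 scale H19 then rose by 2.11 ± 0.23 from 2 to 5 dpr in immature mice (adjusted p = 8.27e-08) and by 3.55 ± 0.25 in mature mice (adjusted p = 4.74e-12), or 4.31-fold and 11.7-fold. Whether this rise differed between ages was not tested, since such a test would hold the 2 dpr difference that chose the gene. From 5 to 14 dpr it changed by -1.14 ± 0.22 (adjusted p = 0.00145) and -1.23 ± 0.23 (adjusted p = 0.00117). Against baseline, the immature group had log2 differences of -0.02 ± 0.22 (0 dpr) and 0.34 ± 0.22 (14 dpr), the first with a sign that changed with the scaling, and the mature group 1.01 ± 0.22 and 1.504 ± 0.22, from the lower baseline for which the gene was chosen. Muscle fibre markers moved with the fall at 2 dpr, where 20 of 20 fell at both ages, with a median log2 fold change of -2.78 and -3.30 for immature and mature mice. Their summed levels were 70922 to 147219 CPM (immature) and 81414 to 167307 CPM (mature) at 0 dpr, and 13576 to 20579 and 9844 to 20522 CPM at 2 dpr. They moved with the mature values before that too, scoring 10.27 to 11.34 at baseline and 11.49 to 12.51 at 0 dpr, with summed levels of 34795 to 72532 and 81414 to 167307 CPM, and 19 of the 20 genes rose, with none at 0. The 2 mature baseline libraries with the lower H19 levels, 272 and 309.9 CPM, had muscle fibre scores of 10.4 and 10.3, and the other 2 scores of 11.1 and 11.3. All 7 adipocyte and all 5 B cell markers also fell from 0 to 2 dpr at both ages. Erythroid markers fell too, 5 and 6 of 6 in immature and mature mice, while all 7 macrophage markers rose. Over all genes 44.0% and 47.6% changed in either direction. The part of muscle content or of other cells in these H19 values was not tested.

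Igf2, the growth factor gene next to H19, was also highest at 5 dpr, at a lower level per kilobase. In immature mice it measured 30.8, 45.6, 47.9 and 49.2 CPM at baseline, 19.6, 33.5, 33.8 and 38.7 CPM at 2 dpr, 156, 257, 284 and 297 CPM at 5 dpr and 92.6, 95.01, 121 and 123 CPM at 14 dpr. In mature mice it measured 11.4, 14.8, 18.8 and 19.5 CPM at baseline, 5.55, 11.3, 15.5 and 19.9 CPM at 2 dpr, 218, 306 and 400.4 CPM at 5 dpr and 78.2, 105, 110.1 and 118 CPM at 14 dpr. At both ages every 5 dpr library was above all others of that age, and every 14 dpr library was above baseline. From 2 to 5 dpr the log2 fold change of Igf2 was 2.98 ± 0.30 for the immature group (adjusted p = 2.22e-08) and 4.55 ± 0.33 for the mature group (adjusted p = 6.05e-12), which is 7.91-fold and 23.4-fold. Its fall from 5 to 14 dpr was -1.20 ± 0.28 (adjusted p = 0.00952) and -1.58 ± 0.30 (adjusted p = 0.00102). The earlier fall from 0 to 2 dpr was -1.002 ± 0.29 in mature mice (adjusted p = 0.00511) and -0.69 ± 0.28 in immature mice (adjusted p = 0.0463), where leaving out 0 dpr replicate 1, the highest at 78.1 CPM, gave -0.39 (adjusted p = 0.286), and leaving out 0 dpr replicate 4 or 2 dpr replicate 1, 2 or 3 also ended the call.

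The receptor and the adaptor of the IGF pathway did not share the fall at 2 dpr. Igf2r ranged over 229 to 300.1 CPM at 0 dpr and 403 to 489 CPM at 2 dpr in immature mice, and over 217 to 275 and 376 to 468 CPM in mature mice, without overlap at either age. It rose by 0.76 ± 0.14 (adjusted p = 2.91e-05) and 0.86 ± 0.14 (adjusted p = 3.45e-06). Its later changes were small, with 454 to 704 and 551 to 658 CPM at 5 dpr and 395 to 656 and 526 to 716 CPM at 14 dpr. From 2 to 5 dpr the change was 0.48 ± 0.15 in mature mice (adjusted p = 0.0247), a call lost without 2 dpr replicate 1 or 5 dpr replicate 3 or 4, and 0.42 ± 0.14 in immature mice (adjusted p = 0.0547). Grb10 measured 128, 152, 162 and 173 CPM at 0 dpr and 217, 266, 269 and 290.2 CPM at 2 dpr in immature mice, and 79.0, 98.1, 99.6 and 114 CPM, then 113, 165, 166 and 205 CPM, in mature mice. It rose at 2 dpr by 0.76 ± 0.16 (adjusted p = 2.00e-04) and 0.73 ± 0.16 (adjusted p = 2.78e-04), although the mature ranges overlapped, through the library at 113 CPM. It rose again at 5 dpr, to 387 to 627 and 414 to 573 CPM.

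Dlk1 and Meg3, the neighbours on chromosome 12, had their highest means later than H19 in some or all mice. Dlk1 was nearly absent at 2 dpr, with 0.921 to 1.39 CPM in immature mice (10 to 12 reads per library) and 0.00 to 0.606 CPM in mature mice (0 to 7 reads per library). It then measured 9.84, 15.1, 19.9 and 31.8 CPM at 5 dpr and 19.9, 27.9, 54.3 and 55.3 CPM at 14 dpr in immature mice, and 4.21, 4.401 and 14.7 CPM, then 24.5, 25.0, 27.5 and 51.2 CPM, in mature mice. Dlk1 was the 1 member with its highest mean at 14 dpr at both ages. The change from 2 to 5 dpr was 4.06 ± 0.52 (adjusted p = 1.95e-06) and 4.86 ± 0.62 (adjusted p = 8.56e-07), where the size rests on the few reads at 2 dpr. From 5 to 14 dpr Dlk1 rose further by 2.04 ± 0.48 in mature mice (adjusted p = 0.0101), a call lost without 14 dpr replicate 1 or 5 dpr replicate 1 or 3, and the change was 1.03 ± 0.42 in immature mice (adjusted p = 0.213). Meg3 ranged over 50.4 to 94.5 CPM at 2 dpr, 109.8 to 144 CPM at 5 dpr and 105 to 159.6 CPM at 14 dpr in immature mice, and over 10.2 to 33.3, 58.2 to 143 and 127 to 199 CPM in mature mice. Its rise from 2 to 5 dpr passed the test in mature mice, with 1.82 ± 0.33 (adjusted p = 2.14e-04), and was 0.93 ± 0.31 in immature mice (adjusted p = 0.0555).

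Of the 10 genes, Mest had the largest change from baseline to 5 dpr. It measured 4.54, 6.85, 7.66 and 14.1 CPM at baseline and 26.4, 34.3, 37.8 and 51.4 CPM at 2 dpr in immature mice, and 360.2, 517, 549.8 and 570.4 CPM at 5 dpr, so that the mean at 5 dpr was 60.3 times that of baseline. In mature mice it measured 2.85, 2.86, 5.27 and 8.91 CPM at baseline, 15.7, 17.6, 18.1 and 25.9 CPM at 2 dpr and 310.5, 315 and 549 CPM at 5 dpr, a mean 78.8 times that of baseline. No stage overlapped the next from 0 dpr onwards at either age. Mest rose at 2 dpr, by 1.53 ± 0.30 (adjusted p = 7.75e-05) and 1.46 ± 0.32 (adjusted p = 2.36e-04), and again at 5 dpr, by 3.74 ± 0.31 (adjusted p = 5.52e-10) and 4.34 ± 0.33 (adjusted p = 1.49e-11). At 14 dpr it was still 22.8-fold and 41.4-fold above baseline by the fitted values (adjusted p = 1.61e-12 and 5.97e-14).

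Peg3, Plagl1 and Cdkn1c, which encode regulators of transcription and of the cell cycle, also had higher levels at 5 dpr. Cdkn1c measured 11.6, 12.98, 18.9 and 20.7 CPM at 2 dpr, 52.3, 62.3, 76.8 and 83.4 CPM at 5 dpr and 24.7, 32.3, 35.2 and 38.99 CPM at 14 dpr in immature mice, and, at the same stages, 5.55, 5.95, 9.11 and 10.0 CPM, 61.4, 75.5 and 94.1 CPM and 23.3, 25.1, 27.7 and 38.0 CPM in mature mice. At both ages its 5 dpr libraries stood apart from those on either side. Cdkn1c rose by 2.10 ± 0.26 (adjusted p = 1.00e-06) and 3.32 ± 0.28 (adjusted p = 1.72e-10) from 2 to 5 dpr. Peg3 ranged over 77.7 to 79.9 and 35.3 to 47.0 CPM at 2 dpr and over 143 to 239 and 127 to 223 CPM at 5 dpr, in immature and mature mice. Peg3 rose by 1.27 ± 0.20 (adjusted p = 6.49e-05) and 2.01 ± 0.22 (adjusted p = 3.93e-08). Plagl1 ranged over 19.5 to 27.1 and 2.55 to 15.2 CPM at 2 dpr and over 74.2 to 108 and 42.7 to 78.1 CPM at 5 dpr. Plagl1 rose by 1.97 ± 0.29 (adjusted p = 2.31e-05) and 2.60 ± 0.31 (adjusted p = 3.50e-07), and at 14 dpr it ranged over 64.9 to 109 CPM in immature and 52.1 to 117 CPM in mature mice, overlapping the 5 dpr values.

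**Figure D2:**
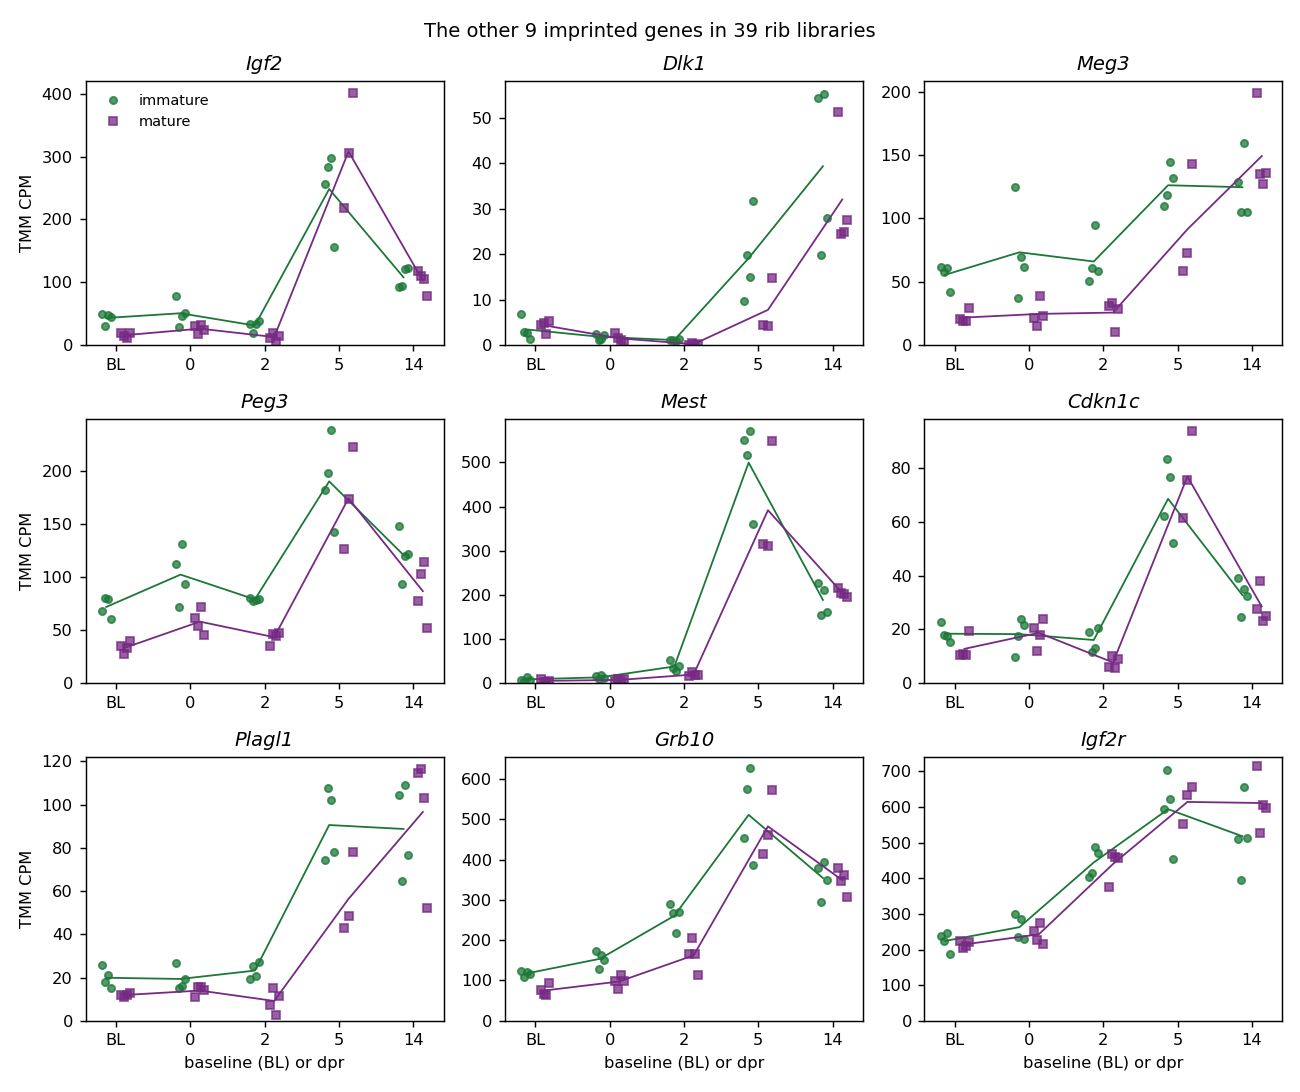
Level of the other 9 genes in each library, in TMM-scaled CPM on linear axes that start at 0, at baseline (BL) and at 0, 2, 5 and 14 dpr. Points are single libraries of immature (circles) and mature (squares) mice and lines join group means. Igf2, Mest and Cdkn1c peaked at 5 dpr, Dlk1 had its highest mean at 14 dpr at both ages, and Igf2r changed little after 5 dpr.

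Read as a list and between successive stages, the genes had most rises between 2 and 5 dpr. In immature mice 8 of the 10 rose, all but Meg3 and Igf2r, while 4.37% of all genes tested rose, and in mature mice all 10 rose, against 8.16% of all genes. Both counts hold H19, whose 2 dpr level was part of its choice. The median log2 fold change of the 10 was 2.03 and 2.96, against 0.01 and 0.06 over all genes. The mean level was highest at 5 dpr for 9 of the 10 genes in immature mice and for 7 in mature mice, where Dlk1, Meg3 and Plagl1 were highest at 14 dpr. From 5 to 14 dpr, 4 of the 10 fell in immature mice, namely H19, Igf2, Mest and Cdkn1c, against 1.45% of all genes. In mature mice 4 fell, namely H19, Igf2, Peg3 and Cdkn1c, against 2.23%, and Dlk1 rose, against 1.95%. Of these, the fall of Cdkn1c in immature mice was lost without 14 dpr replicate 2 (adjusted p = 0.0603), and that of Peg3 in mature mice without 5 dpr replicate 4 (adjusted p = 0.0649). At 14 dpr 9 of the 10 were still above baseline in immature mice, all but H19, and all 10 in mature mice, while 16.4% and 17.1% of all genes were higher, with H19 in mature mice counted from the baseline for which it was chosen. These comparisons share the libraries of each stage and are not independent of each other.

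The early changes were less uniform. From baseline to 0 dpr no member passed edgeR's test in immature mice, where 10.6% of all genes did. Of the 10, 3 had an unadjusted p under 0.05 and DESeq2's test called 2. In mature mice Peg3 rose and Dlk1 fell. H19 also passed the threshold, but from the baseline for which it was chosen, so its call is no support. With H19 the count was 3 of 10 against 22.5% of all genes, which is near the background. Peg3 rose by 0.79 ± 0.21 (adjusted p = 0.00493), and Dlk1 changed by -1.53 ± 0.52 (adjusted p = 0.0312), on 5 to 17 reads per library at 0 dpr. The call of Dlk1 was lost on leaving out baseline replicate 1, 2 or 4 or 0 dpr replicate 3 or 4. From 0 to 2 dpr, 3 genes rose at both ages, namely Mest, Grb10 and Igf2r. H19 and Igf2 fell in immature mice, and H19, Igf2, Dlk1 and Cdkn1c in mature mice. These 5 and 7 calls of 10 stand against 44.0% and 47.6% of all genes, so that the immature count is near the background. Both counts include H19 at the 2 dpr level for which it was chosen. Without 2 dpr replicate 2, the immature count was 3.

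**Figure D3:**
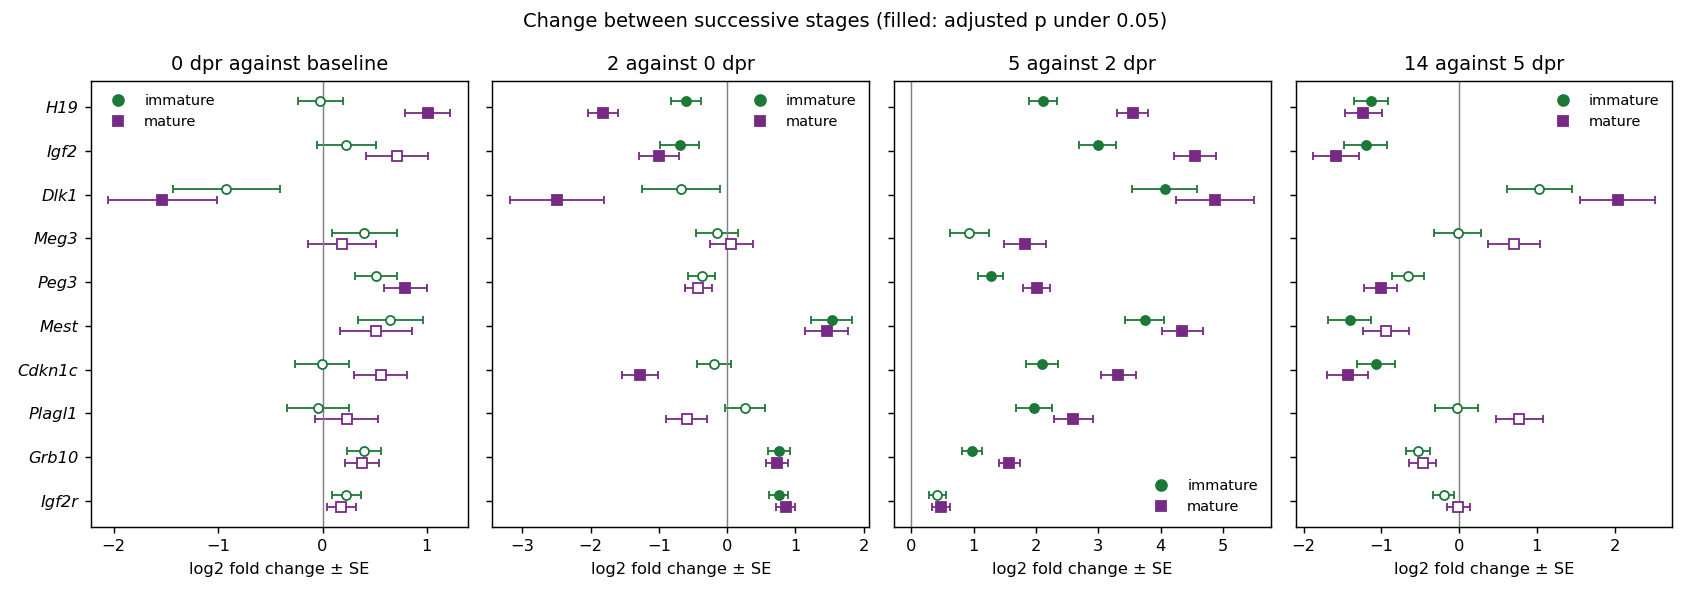
Log2 fold change of each of the 10 genes between successive stages in immature (circles) and mature (squares) mice, from the edgeR fit. Bars are 1 SE on either side, filled symbols mark an adjusted p under 0.05, and each panel has its own horizontal axis. Filled symbols of H19 in panels that hold baseline or 2 dpr rest on levels for which the gene was chosen. From 2 to 5 dpr every symbol lies to the right of 0, and from 0 to 2 dpr Mest, Grb10 and Igf2r rose while H19 fell.

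At baseline and 2 dpr the ages were compared without a test. At baseline the mean of H19 in immature mice was 2.52 times that in mature mice, and the libraries did not overlap. Igf2 (2.69 times), Meg3 (2.54), Peg3 (2.14), Plagl1 (1.67) and Grb10 (1.55) were also higher in every immature than in every mature baseline library. That makes 6 of the 10, where 4.42% of all genes stood so. H19 is among the 6 and was chosen for this difference. Mest, Cdkn1c, Dlk1 and Igf2r overlapped. At 2 dpr H19 in immature mice was 2.87 times the mature mean, and 8 of the 10 did not overlap, all but Igf2 and Igf2r, against 3.20% of all genes. The 8 again include H19, chosen for its difference at this stage. The ratio of the means was 4.75 for Dlk1, on few reads, and between 1.60 for Grb10 and 2.56 for Meg3 in the other 6. For Igf2r the ratios were 1.05 and 1.01. Fibroblast and periosteum markers moved with the ages at both stages, scoring 7.54 to 7.84 in immature and 6.83 to 7.26 in mature mice at baseline and 7.25 to 7.60 and 6.23 to 7.12 at 2 dpr, with summed levels of 2396 to 3729 and 1318 to 1777 CPM at baseline and 2206 to 2932 and 759 to 2278 CPM at 2 dpr. Muscle fibre markers at baseline scored 11.21 to 11.61 and 10.27 to 11.34, with summed levels of 62979.8 to 84994 and 34795 to 72532 CPM, and osteoblast markers at 2 dpr 5.19 to 6.58 and 3.40 to 5.23, with 8177 to 16461 and 4984 to 10313 CPM. Myoblast markers at 2 dpr scored 3.19 to 3.76 and 1.21 to 3.13, lowest in mature replicate 3, which also had the lowest H19 level of that group. Their part in these ratios was not tested.

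At 0 dpr, which was not used to choose the genes, 3 of the 10 were higher in immature mice by edgeR's test, while 0.571% of all genes were. Meg3 measured 37.6, 61.3, 69.6 and 125 CPM in immature and 15.3, 21.5, 22.9 and 39.1 CPM in mature mice, a log2 difference of 1.56 ± 0.32 (adjusted p = 0.00897). The groups overlapped, and replicate 1 of the immature group, at 125 CPM, stood high, without which the difference was 1.19 (adjusted p = 0.0971). Peg3 measured 71.6, 93.9, 113 and 131 CPM in immature and 45.7, 53.6, 61.2 and 71.5 CPM in mature mice, just short of an overlap, a difference of 0.82 ± 0.20 (adjusted p = 0.0428). Grb10, whose values at this stage are given above, did not overlap either, with a difference of 0.66 ± 0.16 (adjusted p = 0.0405). Peg3 and Grb10 were the 2 of the 10 that did not overlap, against 2.16% of all genes. H19 overlapped between ages, with a difference of 0.31 ± 0.22 and a 95% interval of -0.12 to 0.73 (adjusted p = 0.668), and Igf2 differed by 0.94 ± 0.29 (adjusted p = 0.118). The 3 calls rest on few libraries, since none was left when the fit held only the 0 dpr libraries, when immature replicate 1 was left out or when mature replicate 2 was left out, and 1 was left without immature replicate 3 or mature replicate 1 or 4. Fibroblast and periosteum markers moved with these values, scoring 7.41 to 7.67 in immature and 6.81 to 7.08 in mature mice at 0 dpr, and summing to 1957 to 2740.3 and 1048 to 1436 CPM. Of the 8 genes of that list, 2 were higher in immature mice, and none was at 0 in either group. Their part in the difference was not tested.

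At 5 and 14 dpr no member differed between ages by edgeR's test, where 0.00% and 0.00943% of all genes passed. No member had every immature library above, or every one below, all mature libraries, where 4.05% and 2.77% of all genes were above and 6.19% and 2.72% below. Of the 10, 2 and 1 had an unadjusted p under 0.05, and DESeq2's test called none. For H19 the difference was 0.08 ± 0.23 at 5 dpr, with a 95% interval of -0.38 to 0.54, and 0.17 ± 0.22 at 14 dpr, with an interval of -0.25 to 0.60. The value furthest from 0 was that of Dlk1 at 5 dpr, 1.30 ± 0.47 (adjusted p = 0.671). The ages were also compared in their changes. For the change from 0 to 5 dpr no member differed between ages, where 0.0283% of all genes did, and 4 of the 10 had an unadjusted p under 0.05. For the change from 5 to 14 dpr no member differed, where 0.00% of all genes did, and 0 of the 10 had an unadjusted p under 0.05. DESeq2's test called none in either. For H19 the intervals of these differences were -0.86 to 0.39 and -0.53 to 0.72 on the log2 scale.

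**Figure D4:**
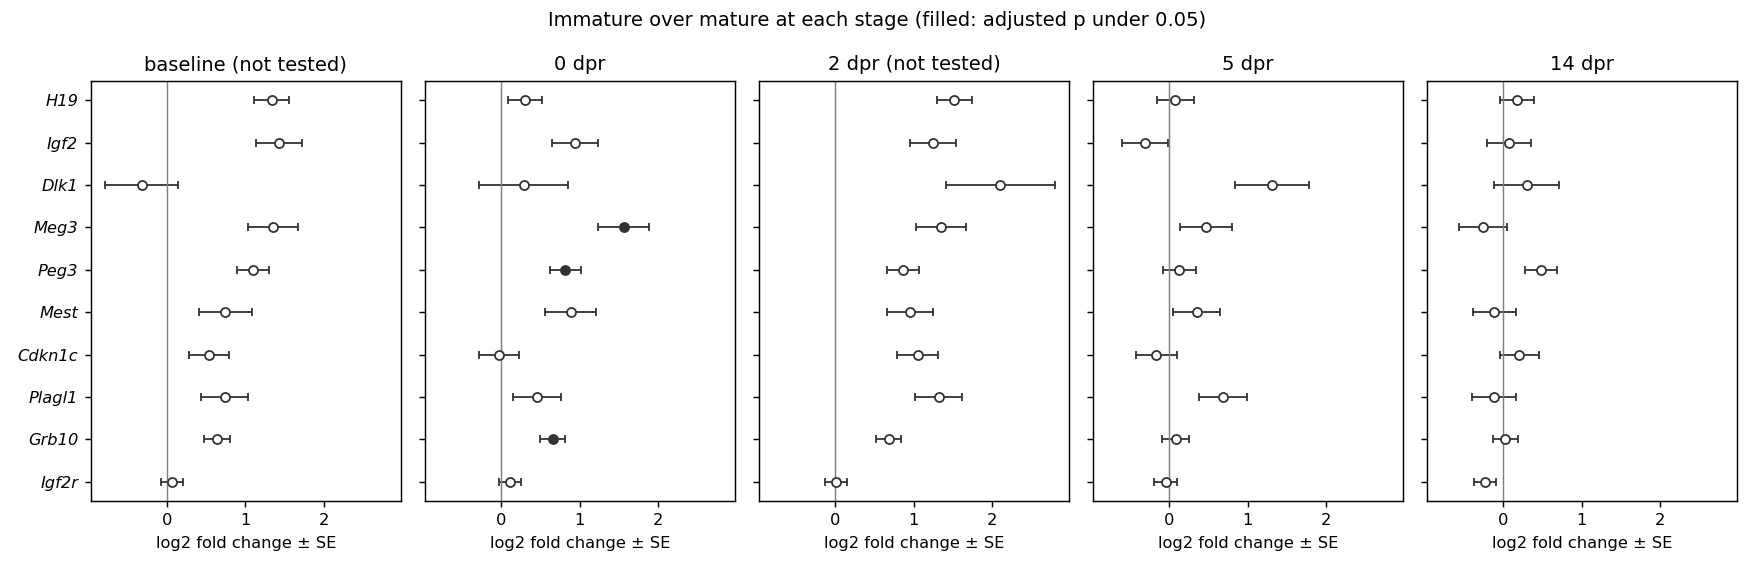
Log2 fold change of immature over mature mice for each of the 10 genes at each stage, from the edgeR fit, with bars of 1 SE on either side. Filled symbols mark an adjusted p under 0.05, and baseline and 2 dpr were not tested because H19 was chosen for its difference there. At 2 dpr all 10 values lie at or to the right of 0, while at 5 and 14 dpr values lie on both sides of it and no symbol is filled.

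Markers of some other cells moved with the rise at 5 dpr. Myoblast and regenerating muscle markers scored 3.19 to 3.76 at 2 dpr, 4.30 to 5.43 at 5 dpr and 2.23 to 2.57 at 14 dpr in immature mice, and 1.21 to 3.13, 5.47 to 6.11 and 2.45 to 3.13 in mature mice. The 10 genes of that list summed to 156 to 239.8 CPM at 2 dpr and 697 to 2216 CPM at 5 dpr in immature mice, and to 83.8 to 183 and 1131 to 2792 CPM in mature mice, with none at 0 throughout those groups (Mymx was at 0 in every immature 0 dpr library). From 2 to 5 dpr 4 of them rose and 1 fell in immature mice and all 10 rose in mature mice, and from 5 to 14 dpr 8 and 10 fell. Muscle fibre markers rose as well, 3 of 20 in immature and 12 of 20 in mature mice, with scores of 9.53 to 9.95 and 8.97 to 10.18 and summed levels of 21742 to 27898 and 16023 to 34309 CPM at 5 dpr, against scores of 8.76 to 9.42 and 8.26 to 9.21 at 2 dpr. Fibroblast and periosteum markers scored 7.25 to 7.60 and 6.23 to 7.12 at 2 dpr, 8.30 to 8.66 and 8.17 to 8.25 at 5 dpr, and 8.86 to 9.03 and 8.84 to 9.02 at 14 dpr, in immature and mature mice, with 5 and 6 of the 8 genes rising from 2 to 5 dpr. Their part in the levels of H19, Igf2, Mest and the other genes was not tested. Macrophage markers, which rose at 2 dpr, scored 8.20 to 8.70 and 8.66 to 9.14 at 5 dpr, against 8.72 to 9.11 and 8.64 to 9.14 at 2 dpr. Few osteoblast and chondrocyte markers passed the test from 2 to 5 dpr. Of 10 osteoblast markers 1 rose at each age and 1 fell in mature mice. Of 9 chondrocyte markers 1 rose in immature and 0 in mature mice.

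**Figure D5:**
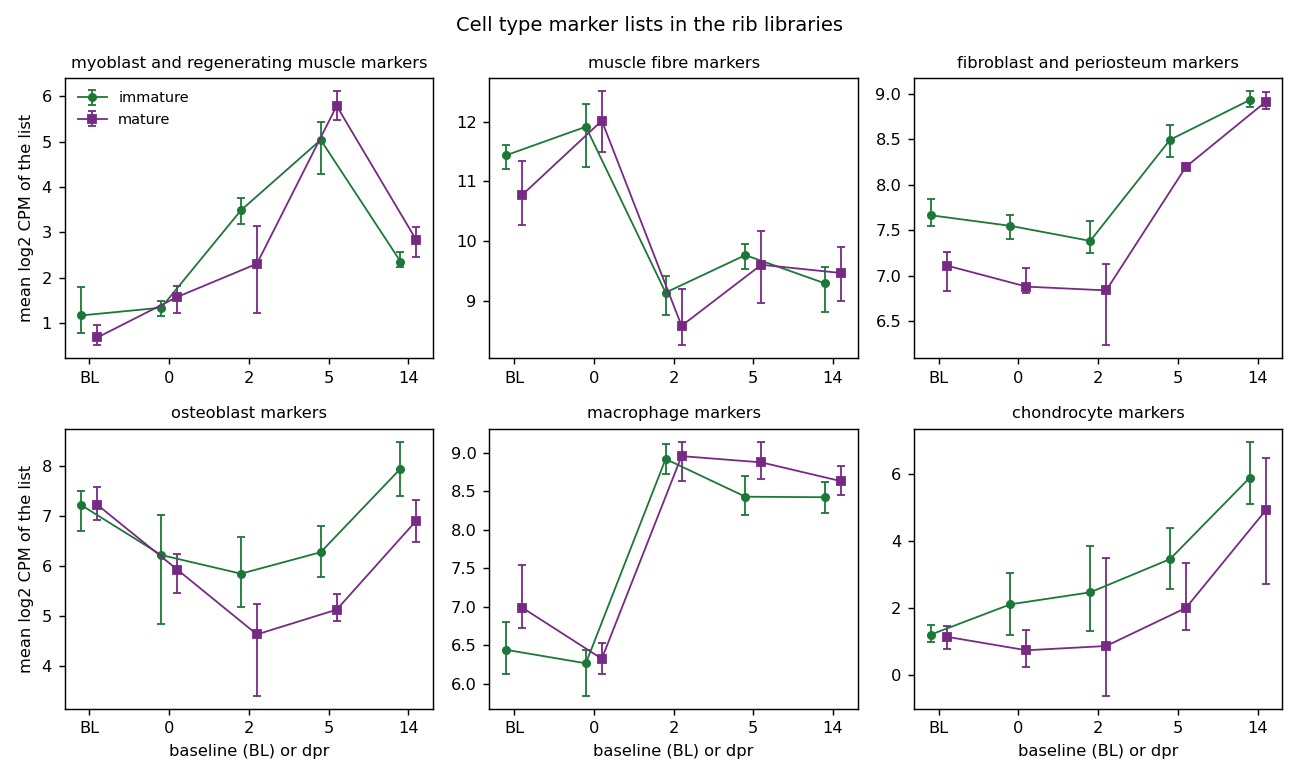
Score of 6 marker lists, each the mean log2 CPM of its genes, at baseline (BL) and at 0, 2, 5 and 14 dpr. Points are group means of immature (circles) and mature (squares) mice and bars run from the lowest to the highest library. The myoblast score was highest at 5 dpr at both ages, and the fibroblast and periosteum score at 14 dpr.

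Other genes listed as imprinted were counted over the same step from 2 to 5 dpr. Which parental copy each was expressed from in these tissues, or whether it was imprinted there, was not measured. Of the 22 listed as paternally expressed, 4 rose in immature and 9 in mature mice by edgeR's test and none fell. Their median log2 fold change was 0.33 and 0.48. Of the 23 listed as maternally expressed, 6 and 10 rose and none fell, with medians of 0.51 and 0.80. Of all genes tested 4.37% and 8.16% rose at this step and 3.68% and 6.38% fell. Among those listed as paternally expressed, Zdbf2 rose by 2.07 ± 0.48 (adjusted p = 0.00426) and 3.76 ± 0.54 (adjusted p = 5.86e-06). Zim1, next to Peg3, rose by 2.07 ± 0.43 (adjusted p = 0.00154) and 1.97 ± 0.45 (adjusted p = 0.00263), and Rian, a noncoding RNA beyond Meg3 on chromosome 12, by 1.12 ± 0.24 (adjusted p = 0.00245) and 1.76 ± 0.26 (adjusted p = 1.14e-05). In mature mice Nnat and Snrpn rose by 3.00 ± 0.68 (adjusted p = 0.00227) and 1.99 ± 0.48 (adjusted p = 0.00433), and in immature mice Klf14, at a mean of 2.00 CPM, rose by 4.79 ± 1.09 (adjusted p = 0.00373). Sgce and Peg13 rose by 0.64 ± 0.18 and 0.52 ± 0.13 in immature mice, and Mirg by 1.52 ± 0.34 in mature mice (adjusted p = 0.0168, 0.00667 and 0.00214). Rian was also higher in immature mice at 0 dpr, by 1.82 ± 0.25 (adjusted p = 7.51e-05), as was Mirg of the same locus, by 1.69 ± 0.37 (adjusted p = 0.0146). They were the 2 calls among the 23, where 0.571% of all genes were higher. A fit of only the 0 dpr libraries called no gene. From 5 to 14 dpr 3 and 4 of the 22 listed as paternally expressed fell. These were Zdbf2 and Peg10 at both ages, Slc38a4 in immature mice and Nnat and Peg12 in mature mice. Peg13 rose in mature mice by 0.58 ± 0.14 (adjusted p = 0.00934). Of the 23 listed as maternally expressed 1, Gatm, fell at both ages. Of all genes 1.45% and 2.23% fell, and 1.95% rose in mature mice.

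In a list of IGF pathway genes and of RNA partners of H19 and Igf2, 17 other genes were tested. From 2 to 5 dpr the immature group had 4 that rose and 2 that fell, and the mature group 5 and 1, against 4.37% and 3.68% of all genes in immature and 8.16% and 6.38% in mature mice. Igf1, the other ligand, rose by 1.07 ± 0.20 (adjusted p = 4.12e-04) and 1.38 ± 0.21 (adjusted p = 1.66e-05). Of the binding proteins, which hold IGFs in the circulation and matrix, Igfbp4 rose by 1.02 ± 0.15 (adjusted p = 2.31e-05) and 1.24 ± 0.16 (adjusted p = 1.15e-06), and Igfbp5 by 0.67 ± 0.16 (adjusted p = 0.00584) and 1.19 ± 0.17 (adjusted p = 6.25e-06). Igfbp6 rose in mature mice, by 1.39 ± 0.33 (adjusted p = 0.00383). Hmga2, a chromatin protein gene of growing tissue, changed by -1.94 ± 0.52 in immature mice (adjusted p = 0.0154). Igf2bp2, whose protein binds Igf2 and H19 RNA, changed by -1.40 ± 0.23 (adjusted p = 8.79e-05) and -1.05 ± 0.25 (adjusted p = 0.0032), while both RNAs rose. Igf2bp2 and Igf1 were also higher in immature mice at 0 dpr, by 1.36 ± 0.25 (adjusted p = 0.00279) and 1.43 ± 0.20 (adjusted p = 7.51e-05). These were the 2 calls among the 17 at that stage, where 0.571% of all genes were higher. A fit of only the 0 dpr libraries called no gene. Along chromosome 7 around H19 and Igf2, 10 genes were tested, H19 and Igf2 included. In immature mice H19 and Igf2 rose from 2 to 5 dpr and Ctsd, a lysosomal protease gene, changed by -0.66 ± 0.21 (adjusted p = 0.0399). In mature mice Nctc1, Tnni2 and Tnnt3 rose as well, by 1.21 ± 0.30 (adjusted p = 0.0052), 1.04 ± 0.30 (adjusted p = 0.015) and 0.87 ± 0.30 (adjusted p = 0.046). Tnni2 and Tnnt3 encode troponins of fast muscle fibres.

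The pattern of H19 over the 10 group means of log2 CPM was compared with that of 16146 genes, as a description in which the groups share their libraries and tissue. Cops9 was most like it (Pearson's r = 0.979), followed by Cdkn1c (0.961), Klhdc10 (0.961), Igf2 (0.957), Kremen1 (0.944), R3hcc1 (0.936), Dusp14 (0.934), Dipk2a (0.934), Col19a1 (0.932) and Fgf11 (0.932). Over the 39 single libraries 4 of these 10 genes remained, namely Cdkn1c, Igf2, Kremen1 and Klhdc10. Cdkn1c and Igf2 were each other's closest gene, with r = 0.975. Within the list, H19 was least like Igf2r (0.463), and Mest was most like Grb10 (0.981).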

How the data were processed

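The authors aligned paired reads to GRCm38 with STAR 2.5.2a, which also counted them by gene. What they deposited are raw counts, in tables of 48733 and, after their filter, 21204 genes, and a normalized signal, which is TMM-scaled CPM and equals edgeR's CPM of the filtered counts (largest relative difference 5e-15). The annotation release is not given in the sources used here. The 21204 genes were fitted in R 4.3.3 with edgeR 4.0.16 (TMM factors, quasi-likelihood test, 1 coefficient per group) over all 39 libraries, and adjusted p-values are Benjamini-Hochberg over all genes, with a threshold of 0.05. For log2 CPM the prior count was 2. Levels per kilobase use the exon length of GENCODE M21. The fit was tested on simulated data. The members, gene lists and marker lists were chosen with earlier results of these data known. All members were named, and of each other list up to 3 genes in each direction, by size of change past the threshold at a mean of at least 1 CPM. For H19 the 10 most alike genes were named.

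Same-numbered libraries were checked for pairing by the correlation of their deviations from group means, which averaged 0.00847 over 154 pairs. All 4 pairs were over 0.1 between the ages at 0 dpr only (lowest 0.109), and the replicate block there left the 3 calls in place. The labels mention separate sequencing runs without assigning libraries to them, so that run and group cannot be told apart. Precision is limited by the total counts given in the text and by the spread between libraries. Alternatives were RLE factors, DESeq2 1.42.0, edgeR's own filter or none, only the libraries compared, the replicate block, and each library left out.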

Additional observations from a re-analysis of the deposited data

Results flagged for a closer look

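Of 90 groups of 4 libraries, 9 for each of the 10 genes, 5 held a library far from the other 3 by Dixon's test of the gap. Chance gives about 1 in 20, and this count is near that share. At baseline in mature mice, replicate 4 was highest for Cdkn1c, with 19.3 CPM against 10.3 to 11.0 in the other 3, and for Meg3, with 29.4 CPM against 18.8 to 20.3. At 14 dpr in mature mice, replicate 1 was highest for Dlk1, with 51.2 CPM against 24.5 to 27.5, and for Meg3, with 198.9 CPM against 127 to 136, so that both genes of the chromosome 12 locus stood out in the same library. At 2 dpr in mature mice, replicate 1 was lowest for Igf2r, with 376 CPM against 456 to 468. The causes were not tested.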

How the results depend on the processing

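Of the 64 changes of single members past the threshold, 57 kept their call under every alternative that left out no library, 52 also with each library left out in turn, and none changed sign. The 7 lost with no library left out were Igf2 from 0 to 2 dpr in immature mice and Igf2r from 2 to 5 dpr in mature mice (without a filter, or with only the libraries compared), and Igf2 and Dlk1 from 0 to 2 dpr in mature mice and the 3 age differences at 0 dpr (with only the libraries compared). DESeq2's Wald test called 2 members from baseline to 0 dpr in immature mice, against 0. With only the libraries compared, 0 members differed between ages at 0 dpr, against 3. That fit takes the spread from the 0 dpr libraries alone and called no gene at all. Why the calls were lost was not tested. With the replicate block, 6 members changed from 5 to 14 dpr in immature mice, against 4, 9 rose from 2 to 5 dpr, against 8, and no other member count differed. The block restricted to the 0 dpr libraries was chosen after seeing the data. With 1 library left out, the number of members called ranged from 0 to 1 from baseline to 0 dpr (1 without 0 dpr replicate 2), 3 to 5 from 0 to 2 dpr, 8 to 9 from 2 to 5 dpr, 3 to 6 from 5 to 14 dpr and 9 to 9 from baseline to 14 dpr in immature mice. In mature mice the ranges were 2 to 4, 7 to 8, 9 to 10, 4 to 5 and 10 to 10. Between ages at 0 dpr the range was 0 to 4, where Igf2 was the fourth. The age difference of H19 ranged from 1.20 to 1.51 at baseline and from 1.40 to 1.66 at 2 dpr on the log2 scale.

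Values close to 0 changed sign. H19 from baseline to 0 dpr in immature mice was 0.0239 with RLE factors and with DESeq2 and 0.0262 with edgeR's filter, and ranged from -0.103 to 0.0382 with 1 library left out, above 0 in 4 of these fits. H19 between ages ranged from -0.0152, without immature replicate 1, to 0.281 at 14 dpr and from -0.127, without mature replicate 1, to 0.262 at 5 dpr. Cdkn1c between ages at 0 dpr ranged from -0.188 to 0.181, and was above 0 without immature replicate 1 or mature replicate 1 or 4. Of the 10 genes most like H19, 4 were shared over single libraries and 9 with a prior count of 0.5. Depth limits Dlk1 at 2 dpr in mature mice, where it had 0 to 7 reads per library.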
